A study of Rattus norvegicus with 6 samples.

Results

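The integrated stress response and the unfolded protein response were followed through 10 genes, chosen by name: the stress sensors Ern1, Eif2ak3 and Atf6, the transcription factors Atf4, Xbp1 and Ddit3, and the target genes Trib3, Asns, Chac1 and Herpud1. All 10 genes were found, with 1 probe set (the group of probes that measures a transcript) each, among 22093 genes with a single symbol on the Clariom D Pico array. The RNA came from the hippocampus of male Sprague-Dawley rats aged 18 months, with 3 rats and 3 arrays in each group. The sevoflurane group breathed 2.5% sevoflurane carried in 100% oxygen during 4 h. Control rats breathed 100% oxygen during the same 4 h in a chamber of the same kind, so high oxygen was shared by both groups, and every hippocampus was taken 3 h after the exposure. The values are normalized expression levels on the log2 scale, so that a difference of 1 is a doubling. Groups were compared by limma's moderated test, two-sided, over all 68842 probe sets tested. No probe set in the whole table passed after Benjamini-Hochberg adjustment (smallest adjusted p = 0.184 from limma), and a gene is therefore called higher or lower below when its unadjusted p was under 0.05, which is a weaker criterion.

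Cells answer faults in protein folding and shortages of amino acids with a linked set of pathways. In the endoplasmic reticulum (ER), the sensors IRE1 (encoded by Ern1), PERK (Eif2ak3) and ATF6 detect unfolded proteins. IRE1 cuts Xbp1 mRNA so that it can be spliced into the form that encodes the active factor, ATF6 is cleaved to release a transcription factor, and PERK phosphorylates the translation factor eIF2. Phosphorylated eIF2 slows protein synthesis in general but favours translation of Atf4, whose protein induces Ddit3 (CHOP), Trib3, Asns and Chac1. Other eIF2 kinases feed into the same step during amino acid shortage, heme shortage or viral infection, which is why the eIF2 branch is called the integrated stress response. Much of this signalling therefore runs through splicing, cleavage, phosphorylation and translation. The deposited value is 1 level per gene, and it does not separate spliced from unspliced Xbp1 mRNA or report protein.

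The array of sevoflurane replicate 1 differed from the remaining 5 in its distribution of values, and the results below that rest on it are given with and without it. The standard deviation over all probe sets was 1.85 on that array and between 1.93 and 2.03 on the other 5, and its score on the first principal component, which held 59.3% of the variance, was 71.6 against -36.1 to 19.2. Neuronal and hippocampal field markers were measured on every array, with a summed linear level from 12000 to 13500 for 6 neuronal markers, and none of the 6 or of the 8 field markers measured was called. Markers of thalamus and habenula, which lie next to the hippocampus, were called higher in 8 of 15 cases, with a summed linear level of 1710 to 1820 in controls and 2100 to 3860 after sevoflurane. Their mean log2 level was 7.08, 7.59 and 6.80 on sevoflurane replicates 1, 2 and 3, against 6.57 to 6.65 in controls. None of 8 microglial markers was called, yet their mean log2 level was 8.21 on sevoflurane replicate 3 and between 7.44 and 7.53 on the other 5 arrays, and their summed level was 1800 to 1890 in controls and 1800 to 3220 after sevoflurane. In these 4 lists, no marker stayed under background (the median of 23 background probe sets) throughout. The part of these markers in any result was not tested, and in whole tissue a lower share of cells of a type cannot be told apart from less RNA per cell.

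None of the 10 stress response genes was called higher or lower after sevoflurane, and in none of them did the 3 sevoflurane arrays separate from the 3 control arrays. Over all genes, 1.32% were called (1.1% higher and 0.222% lower, and 1.61% of all probe sets), which would be less than 1 gene in 10, and 6.27% had groups that did not overlap (4.93% with sevoflurane higher). The adjusted p from limma was 1 for each of the 10 genes, and their unadjusted p lay between 0.215 for Herpud1 and 0.936 for Xbp1. With 3 arrays against 3 the exact permutation test, two-sided, cannot go below 0.1, and it gave between 0.2 for Atf4 and 1 for Xbp1. The median log2 difference over the 10 genes was 0.02, the same as the 0.02 over all genes, with 5 genes above 0 and 5 below. For all 10 the 95% interval of the difference stayed inside a change of 1.5-fold in either direction, the fold limit that the study applied to its lncRNAs. The same held for 94.0% of all genes, so it is a statement about the precision of the arrays as much as about these genes. All 10 lay above background on each of the 6 arrays, by at least 2.68 on the log2 scale.

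**Figure D1:**
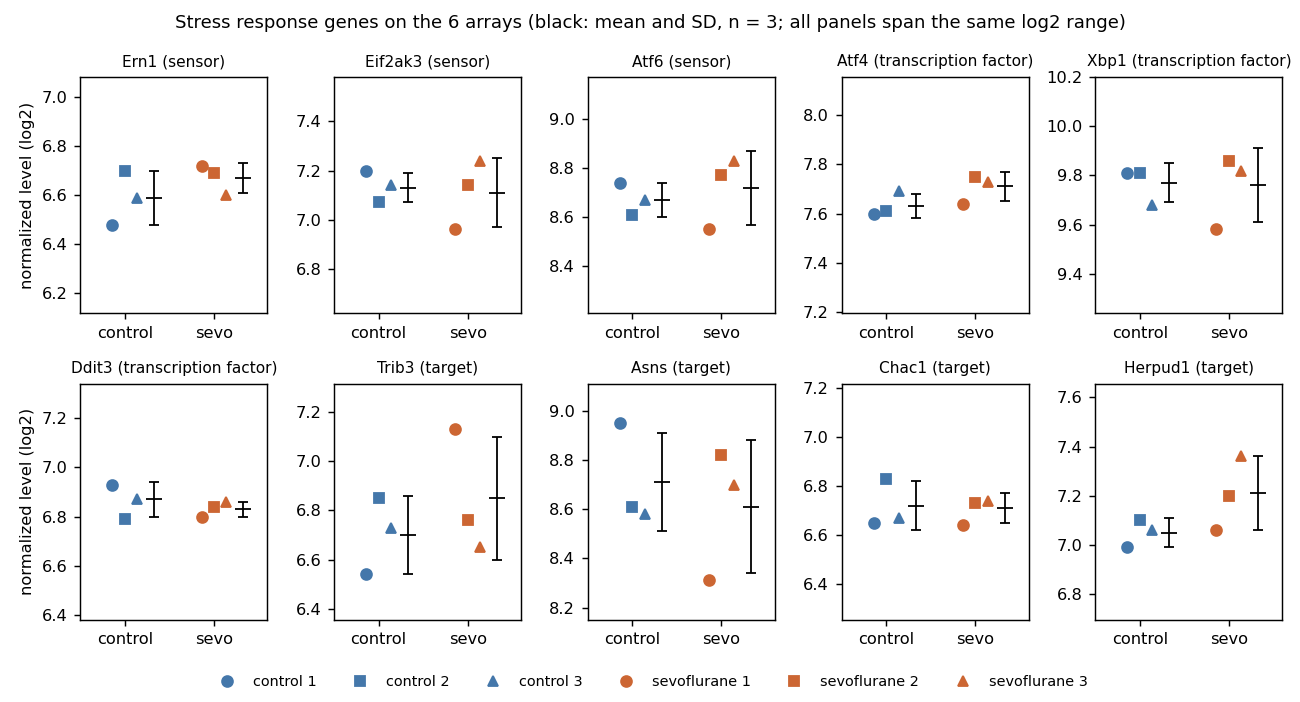
Normalized expression (log2, vertical axis) of the 10 stress response genes on the 3 control arrays (blue) and the 3 sevoflurane arrays (orange), with the replicate number as the marker shape and the mean and SD (n = 3) in black. The groups overlap in each panel, and sevoflurane replicate 1 gives the lowest value of the 6 in 5 panels and the highest in 2.

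The sensors differed little between groups. Ern1, the kinase and ribonuclease that cuts Xbp1 mRNA, was at 6.48, 6.70 and 6.59 on control replicates 1, 2 and 3 and at 6.72, 6.69 and 6.60 on sevoflurane replicates 1, 2 and 3. Sevoflurane replicate 1 was just above the control range and the others were inside it, and the ratio of the groups was 1.06-fold (95% interval 0.888 to 1.26). Eif2ak3, the ER kinase that phosphorylates eIF2, was at 7.20, 7.07 and 7.14 in controls and at 6.96, 7.14 and 7.24 after sevoflurane. Here the sevoflurane group held both the lowest and the highest of the 6 values, and the ratio was 0.984-fold (95% interval 0.819 to 1.18). Atf6, the membrane-bound sensor that becomes a transcription factor when it is cleaved, was at 8.74, 8.61 and 8.67 in controls and at 8.55, 8.77 and 8.83 after sevoflurane. Replicate 1 was below and replicates 2 and 3 were above every control, with a ratio of 1.03-fold (95% interval 0.857 to 1.24). Without sevoflurane replicate 1 the ratios of Ern1, Eif2ak3 and Atf6 were 1.04-fold, 1.04-fold and 1.09-fold, and none was called (unadjusted p of 0.630, 0.589 and 0.218 from limma).

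Among the transcription factors, Atf4 and Ddit3 had the narrowest ranges over the 6 arrays of the 10 genes. Atf4, the factor at the centre of the integrated stress response, was at 7.60, 7.61 and 7.69 in controls and at 7.64, 7.75 and 7.73 after sevoflurane. Its whole range was 0.16 on the log2 scale, sevoflurane replicates 2 and 3 were above and replicate 1 was inside the control range, and the ratio was 1.05-fold (95% interval 0.894 to 1.24). Ddit3, which encodes the proapoptotic factor CHOP and is a classical readout of lasting ER stress, was at 6.93, 6.79 and 6.87 in controls and at 6.80, 6.84 and 6.86 after sevoflurane. All 3 sevoflurane values lay inside the control range, within a whole range of 0.15, and the ratio was 0.977-fold (95% interval 0.831 to 1.15). An increase of Ddit3 mRNA above 1.15-fold was thus outside the interval of this fit at this time point. The upper bound depended on the fit, and it was 1.24-fold with the replicate number as a block. Xbp1, the factor activated by IRE1, was at 9.81, 9.81 and 9.68 in controls and at 9.58, 9.86 and 9.82 after sevoflurane, again with replicate 1 lowest and replicates 2 and 3 above every control. Its ratio was 0.993-fold (95% interval 0.823 to 1.20), and 1.05-fold without sevoflurane replicate 1 (unadjusted p of 0.450 from limma).

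The factors act on their targets through short elements in the promoters, and the stretches that hold a match to such an element are shown here because 4 of the 10 genes carry one. Promoter sequences from RefSeq (build GRCr8) were found for 8 of the 10 genes, the exceptions being Ern1 and Atf6, and the 250 bases before the annotated start were searched on both strands. The ER stress response element, through which ATF6 acts, was taken as CCAAT and CCACG with 9 bases between them. It was found in 1 of the 8 promoters, that of Xbp1, and in 0.0657% of all 33469 promoters. The core of the C/EBP-ATF response element, through which ATF4 acts, was taken as TGATGNAA. It was found in 3 of the 8, those of Trib3, Chac1 and Herpud1, each on the reverse strand, and in 3.4% of all promoters. The unfolded protein response element, taken as TGACGTGG, was in none of the 8 and in 0.52% of all promoters. A match of letters is a description of the sequence and not a measured site, and a missing match refers only to these letters in this window. The matches began 65 bases before the start in Xbp1, 167 in Chac1, 184 in Herpud1 and 21 in Trib3. For Herpud1 this start lies inside the full annotated span of the gene, so that a longer transcript begins further upstream. The 4 stretches follow, each read 5′ to 3′ on the strand of the gene, with the matched element in capitals.
Xbp1, chr14:84604528-84604607, plus strand: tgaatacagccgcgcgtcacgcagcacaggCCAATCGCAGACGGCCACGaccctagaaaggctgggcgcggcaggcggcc
Chac1, chr3:126795934-126796013, plus strand: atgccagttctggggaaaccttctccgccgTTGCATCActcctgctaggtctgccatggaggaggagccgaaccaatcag
Herpud1, chr19:10614842-10614921, minus strand: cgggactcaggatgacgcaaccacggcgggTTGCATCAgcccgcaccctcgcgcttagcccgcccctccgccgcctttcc
Trib3, chr3:161275534-161275613, minus strand: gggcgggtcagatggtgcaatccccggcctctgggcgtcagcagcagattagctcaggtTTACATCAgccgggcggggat

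None of the 3 genes that carry the C/EBP-ATF letters was called. Chac1, an enzyme that degrades glutathione and a sensitive target of ATF4, was at 6.65, 6.83 and 6.67 in controls and at 6.64, 6.73 and 6.74 after sevoflurane. Sevoflurane replicates 2 and 3 lay inside the control range and replicate 1 just under it, and the ratio was 0.993-fold (95% interval 0.838 to 1.18). Trib3, a pseudokinase induced by ATF4 and CHOP, was at 6.54, 6.85 and 6.73 in controls and at 7.13, 6.76 and 6.65 after sevoflurane. Only sevoflurane replicate 1 exceeded the controls, and the ratio of 1.11-fold (95% interval 0.869 to 1.41) became 1.0-fold without that array. Herpud1, an ER membrane protein that organises the degradation of misfolded proteins and is induced by several branches of the response, was at 6.99, 7.10 and 7.06 in controls and at 7.06, 7.20 and 7.36 after sevoflurane. It had the largest positive difference of the 10 genes, 0.16 on the log2 scale (standard error 0.117), with sevoflurane replicates 2 and 3 above every control and replicate 1 level with control replicate 3. The ratio was 1.11-fold (95% interval 0.926 to 1.34). Without sevoflurane replicate 1 it was 1.17-fold, with an unadjusted p of 0.0502 from limma, which still missed the threshold. Its highest value fell on sevoflurane replicate 3, the array on which microglial markers had a mean log2 level of 8.21, and the part of these cells in it was not tested.

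Asns, asparagine synthetase, whose promoter in the window searched held none of the 3 motifs, had the widest range of the 10 genes. It was at 8.95, 8.61 and 8.58 in controls and at 8.31, 8.82 and 8.70 after sevoflurane. Both extremes came from arrays of the number 1, the highest from control replicate 1 and the lowest from sevoflurane replicate 1, and the range of 0.64 on the log2 scale far exceeded the difference between the groups. The ratio was 0.932-fold (95% interval 0.716 to 1.21), the lowest of the 10, and it turned to 1.04-fold without sevoflurane replicate 1 and to 1.01-fold without control replicate 1, and neither was called.

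**Figure D2:**
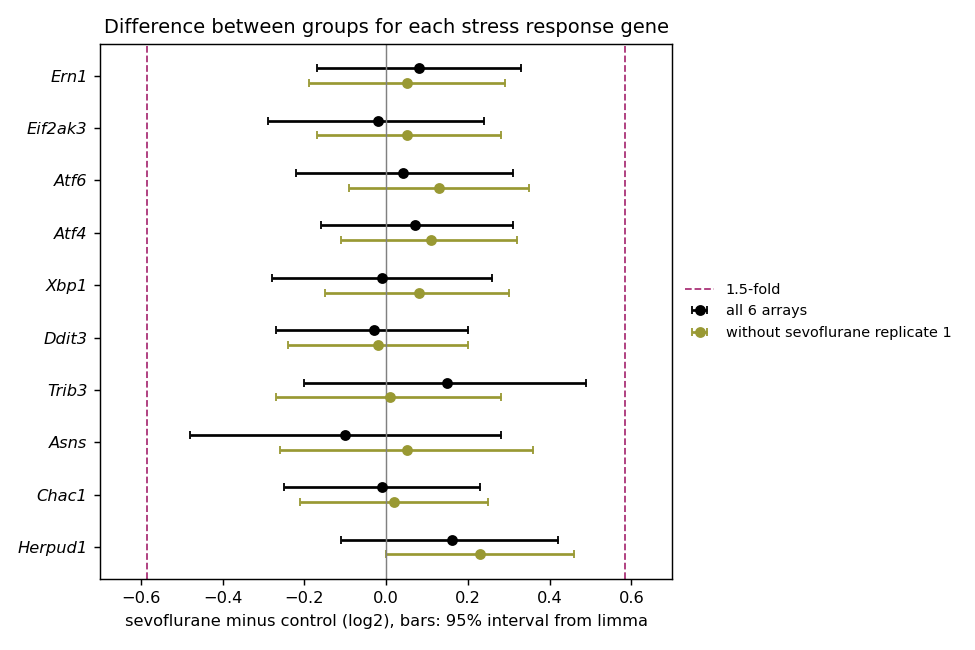
Difference between the sevoflurane and control groups (log2, horizontal axis) for each of the 10 stress response genes, with 95% intervals from limma, for all 6 arrays (black) and without sevoflurane replicate 1 (olive). Every interval on all 6 arrays spans 0 and stays inside the dashed lines at 1.5-fold, and Trib3 reaches furthest up (0.49) and Asns furthest down (-0.48).

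Trib3 and Asns varied more between arrays than between groups, and in opposite directions. Over the 6 arrays Trib3 had a range of 0.59 and Asns of 0.64, whereas the other 8 genes had ranges of 0.15 to 0.37. Trib3 was highest on sevoflurane replicate 1, the array with the smallest standard deviation over all probe sets (1.85), and lowest on control replicate 1, the array with the largest (2.03). Asns was lowest on the former and highest on the latter. After quantile normalization, which gives all arrays the same distribution of values, the range of Asns fell to 0.45 and that of Trib3 stayed at 0.58. Atf6 and Xbp1 narrowed from 0.28 each to 0.09 and 0.15, and sevoflurane replicate 1 was then no longer their lowest array, at 8.69 for Atf6 and 9.73 for Xbp1. On that array Trib3 was at 7.13 as deposited and 7.15 after quantile normalization, and remained the highest of the 6. Asns moved up from 8.31 to 8.43 and remained the lowest. Within groups, the 10 genes had a median residual SD of 0.112 against 0.146 over all genes.

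**Figure D3:**
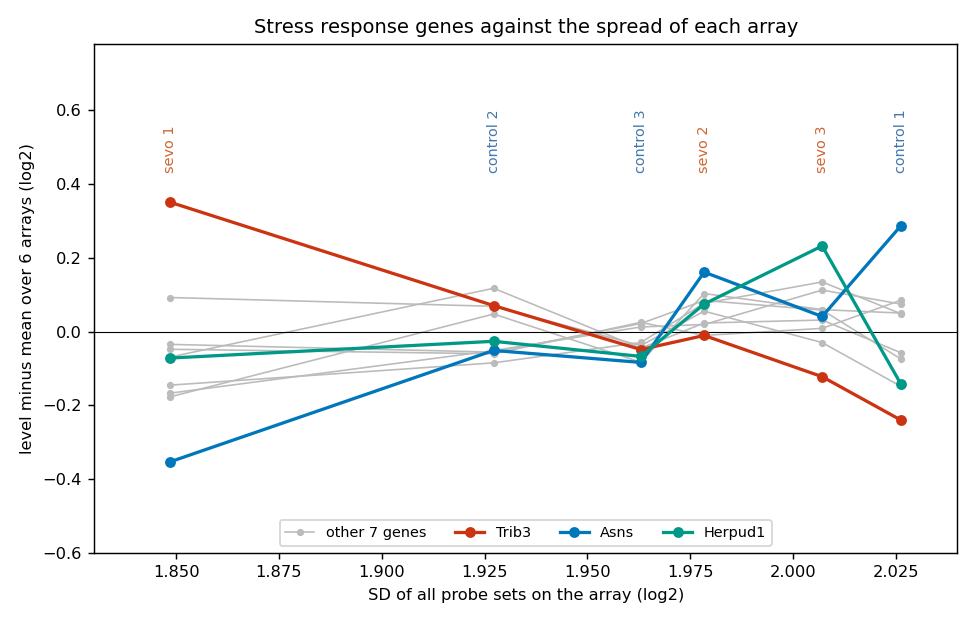
Level of each stress response gene minus its own mean over the 6 arrays (log2, vertical axis) against the standard deviation of all probe sets on the array (log2, horizontal axis), with lines joining the 6 arrays of a gene. Trib3 (red) goes from 0.35 on sevoflurane replicate 1 down to -0.24 on control replicate 1, Asns (blue) from -0.35 up to 0.29, and Herpud1 (green) peaks at 0.23 on sevoflurane replicate 3.

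Beyond these genes, 126 of 128 further genes of the pathways were measured, sorted into 6 lists by role. In all, 3 of the 126 were called higher and none lower, against 1.32% called over all genes. The sole list with calls was that of the partners and targets of ATF4 and CHOP, with 3 of 33 higher. None was called among 19 eIF2 kinases and regulators of eIF2, 12 aminoacyl-tRNA synthetases, 22 ER chaperones and folding enzymes, 28 genes of ER-associated degradation and the translocon, and 12 genes of sensor processing and ER stress signalling. The median log2 difference of these lists was 0.03, 0.04, 0.06, 0.02 and -0.01, in that order, and 0.08 for the ATF4 list, beside 0.02 over all genes. Without sevoflurane replicate 1 the same medians were 0.09, 0.11, 0.14, 0.12 and 0.06, and 0.03 for the ATF4 list, beside 0.00 over all genes, so that the ATF4 list went from the highest median of the 6 to the lowest. In the ATF4 list the groups did not overlap in 9 of 33 genes (27.3%), 8 of them higher, against 6.27% over all genes. The corresponding counts were 2 of 28 for degradation and the translocon, 2 of 12 for sensor processing and 0 in the other lists. The gene of the ATF4 list that was apart and lower was Ero1a, named after its values had been seen. It was at 9.27, 9.29 and 9.20 in controls and at 9.14, 9.18 and 9.12 after sevoflurane. The lists were chosen with earlier results of these data known, so these counts are not independent of the data. The 95% interval stayed inside 1.5-fold for 122 of the 126 genes.

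**Figure D4:**
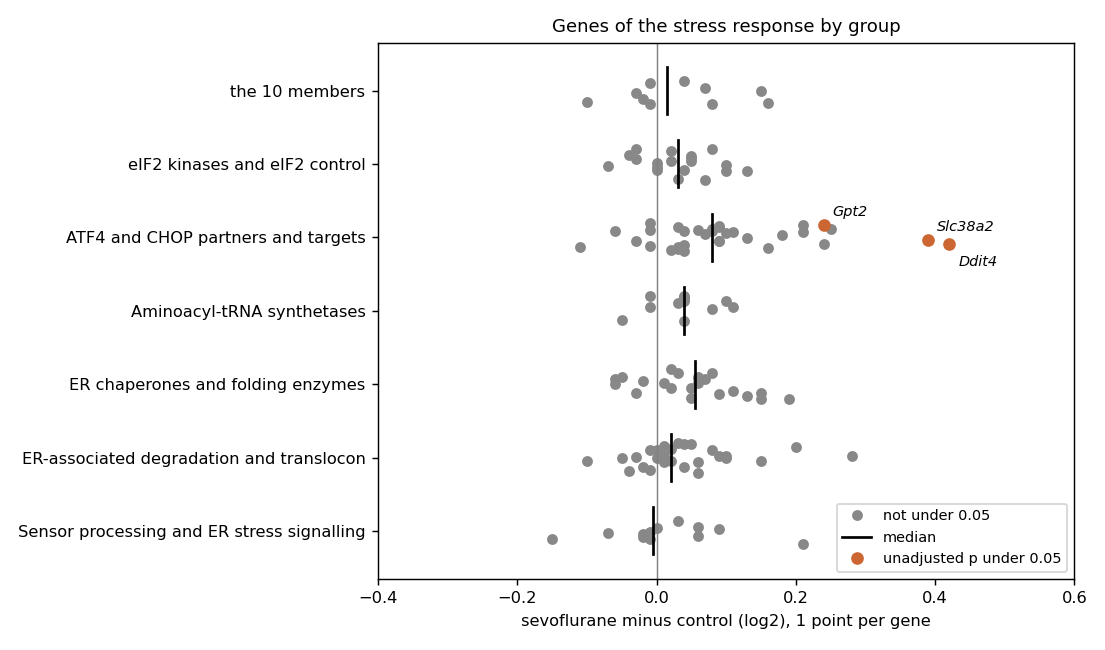
Difference between the sevoflurane and control groups (log2, horizontal axis) for the 10 stress response genes and for the genes of 6 lists, 1 point per gene, with the median as a bar and genes at an unadjusted p under 0.05 in orange. All medians lie between -0.01 and 0.08, and Ddit4, Slc38a2 and Gpt2 are the genes called.

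The 3 genes called in the ATF4 list were Ddit4, Slc38a2 and Gpt2. Ddit4, an inhibitor of mTOR signalling that glucocorticoids and hypoxia also induce, was at 7.68, 7.82 and 7.85 in controls and at 8.09, 8.21 and 8.33 after sevoflurane, which is 1.34-fold higher (95% interval 1.12 to 1.61, unadjusted p of 0.00553 from limma). Slc38a2, a transporter that brings small neutral amino acids into the cell, was at 8.76, 8.89 and 8.95 in controls and at 9.19, 9.30 and 9.28 after sevoflurane, 1.31-fold higher (95% interval 1.11 to 1.55, unadjusted p of 0.00606 from limma). Gpt2, the mitochondrial alanine aminotransferase, was at 7.07, 7.09 and 7.13 against 7.31, 7.29 and 7.40, 1.18-fold higher (unadjusted p of 0.0459 from limma). In each of the 3 every sevoflurane array exceeded every control array. Ddit4 and Slc38a2 remained called in each fit that left out 1 array. Gpt2 stayed called without sevoflurane replicate 1 (unadjusted p of 0.0317) and lost its call without any of the other 5 arrays (unadjusted p of 0.0807 to 0.123, limma). Slc3a2, the heavy chain that carries several amino acid transporters to the membrane, was at 8.06, 7.96 and 8.03 against 8.12, 8.26 and 8.30, with groups apart but an unadjusted p of 0.0819. Cth and Psat1 of the same list had smaller unadjusted p (0.0694 and 0.0778 from limma), with log2 differences of 0.24 and 0.25. Slc3a2, Cth and Psat1 were named after their values had been seen. The other amino acid transporters of the list, Slc7a1, Slc7a3, Slc7a5 and Slc7a11, were not called, with log2 differences of -0.06, 0.03, 0.09 and -0.01, and these too were named after their values had been seen.

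The eIF2 step itself showed no called gene. Of its 19 kinases, subunits and regulators, Oma1, the mitochondrial protease that can start the response from mitochondria, had the smallest unadjusted p (0.325), with a log2 difference of 0.13. Ppp1r15b and Dele1, a subunit that directs the phosphatase of eIF2 and the messenger cut by Oma1, were at log2 differences of 0.10 and 0.08. The stress-induced phosphatase subunit Ppp1r15a was at 6.16, 6.26 and 6.32 in controls and at 6.34, 6.23 and 6.25 after sevoflurane, a ratio of 1.02-fold. Eif2s1, which encodes the subunit of eIF2 that is phosphorylated, had a wide spread, at 7.71, 7.39 and 7.37 against 6.92, 7.68 and 7.78. Its lowest value again belonged to sevoflurane replicate 1, and its log2 difference of -0.03 became 0.24 without that array (unadjusted p of 0.101 from limma). Among other targets of ATF4, the transcription factor Atf3 had a log2 difference of 0.08, with sevoflurane replicate 1 alone at 6.77 above the controls (6.29 to 6.48), and of -0.07 without that array. Sesn2, a sensor of leucine, was at a log2 difference of 0.10. Ppp1r15a, Eif2s1, Atf3 and Sesn2 were chosen for their roles after their values had been seen. The synthetases Nars1, Wars1 and Cars1, which charge tRNA with asparagine, tryptophan and cysteine, had the smallest p of their list, at log2 differences of 0.11, 0.10 and 0.08.

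The genes of ER folding and degradation were not called on all arrays, and several of them were called without sevoflurane replicate 1. Hspa5, the chaperone BiP that binds unfolded proteins and holds the sensors inactive, was at 9.33, 9.32 and 9.47 in controls and at 9.36, 9.64 and 9.70 after sevoflurane. Replicates 2 and 3 were above every control and replicate 1 was inside the control range, so that the log2 difference was 0.19 (unadjusted p of 0.167) on all arrays and 0.30 (unadjusted p of 0.0175, 1.23-fold) without replicate 1, both from limma. Edem1, which takes misfolded glycoproteins out of the folding cycle and is a target of XBP1, was at 7.27, 6.99 and 7.06 against 7.02, 7.44 and 7.70. Its log2 difference was 0.28 (unadjusted p of 0.149) and 0.46 without replicate 1 (unadjusted p of 0.00722, 1.38-fold), from limma. The disulfide isomerases Pdia3 and Pdia6, the Herpud1 homolog Herpud2 and the translocon protein Tram1 gave differences of 0.24, 0.23, 0.26 and 0.26 without replicate 1, each called, and Pdia6 was named after its values had been seen. Dnajb9, a cochaperone of BiP and a target of XBP1, did not share this pattern, at 6.92, 6.84 and 6.86 against 6.86, 6.94 and 6.90, and it too was chosen for its role after its values had been seen. Sdf2l1, another ER chaperone partner, had its one high value on sevoflurane replicate 1 (7.05, against 6.53 to 6.76 on the other 5 arrays), and its log2 difference was 0.15 on all arrays and 0.04 without that one.

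**Figure D5:**
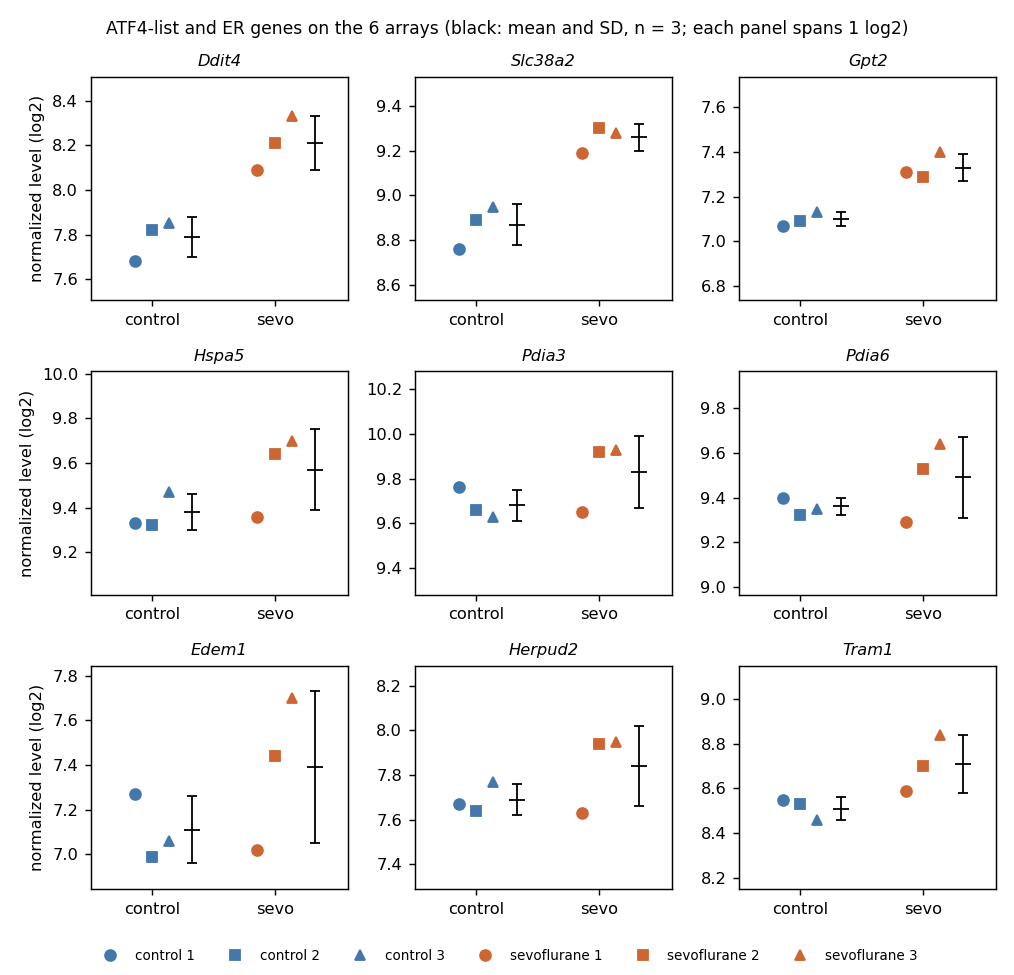
Normalized expression (log2, vertical axis) of 3 genes called on all arrays (Ddit4, Slc38a2 and Gpt2) and of 6 genes of ER folding and degradation called without sevoflurane replicate 1, on control (blue) and sevoflurane (orange) arrays, with mean and SD (n = 3) in black. In the top row all sevoflurane arrays are above all controls, and in the others sevoflurane replicates 2 and 3 are above the controls, while replicate 1 lies inside or below their range except in Tram1.

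Without sevoflurane replicate 1, a fit of 3 control against 2 sevoflurane arrays, 11 of the 126 genes of the lists were called higher (8.73%) and none lower, against 2.77% higher and 4.61% in either direction over all genes. They were 4 of 33 in the ATF4 list, 3 of 22 chaperones and folding enzymes, 3 of 28 genes of degradation and the translocon, and Tmbim6, a suppressor of ER stress and cell death, of the 12 in sensor processing. After adjustment none of them passed (each adjusted p = 0.794 from limma). The 10 stress response genes still had no call in that fit, and their median log2 difference was 0.05, against 0.00 over all genes. Tmbim6 was at 9.19, 9.31 and 9.33 in controls and at 9.43, 9.48 and 9.56 after sevoflurane on all arrays, with groups apart and an unadjusted p of 0.0766 from limma. Creb3l1 and Creb3l2, ER-bound relatives of ATF6, had log2 differences of -0.15 and 0.09. The arrays that carried the higher values, sevoflurane replicates 2 and 3, were also those with the highest thalamic and the highest microglial marker levels, respectively, given above. Their standard deviations over all probe sets were 1.98 and 2.01, inside the range of the controls, and the part of each of these in the result was not tested.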

How the data were processed

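Groups were taken from the sample labels. The table that the authors deposited holds normalized log2 expression, with a value for each probe set on each of 6 arrays of 1 colour. Their processing notes list RMA, MAS5 and Affymetrix Expression Console 1.4.1, with no role given for any of them. Normalization across arrays removes a change common to most transcripts. After 1738 control probe sets were left out, 68842 were tested with no filter on level, using limma 3.58.1 in R 4.3.3 (lmFit and eBayes). Symbols came from the platform annotation, those with several symbols were set aside, and the probe set with the highest mean stood for a gene. No pair of arrays held identical values (0 pairs). Array number limits the precision. The members and lists were chosen with earlier results of these data known. Named genes were the 10 members and the 3 smallest p of each of 6 lists, with exceptions stated. Marker lists without a bearing on the members were examined as well (endothelium with 1 higher and 2 lower of 10, oligodendrocytes 1 and 1 of 8, red cells 0 and 2 of 6, choroid plexus 1 and 0 of 9, astrocytes and mural cells 0 of 8 and 0 of 6). Array weights used limma's gene-by-gene method, because the default gave a warning. Tables and figures used pandas 2.3.3 and matplotlib 3.10.9 in Python 3.11.15.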

Additional observations from a re-analysis of the deposited data

How the results depend on the processing

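None of the 10 genes was called in any of 14 alternatives (0 of 140 values), and none passed adjustment. Each of the 6 arrays was left out in turn, and the other alternatives were the methods' one-way ANOVA, array weights, an intensity trend with robust spread, quantile normalization, median centring, a replicate block, removal of dim probe sets and averaging of a gene's probe sets. Intervals stayed inside 1.5-fold for 10 genes, except for Asns in the ANOVA, with centring and without any 1 of the arrays numbered 2 or 3, and for Trib3 in the same fits other than centring, with bounds from -0.64 to 0.63, so that 8 or 9 were left.

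Differences near 0 changed sign. With array weights Eif2ak3, Xbp1, Asns, Chac1 and Eif2s1 were at 0.02, 0.12, 0.14, 0.04 and 0.24, and Oma1, Ppp1r15a and Atf3 at -0.01, -0.05 and -0.05, and with quantile normalization Xbp1 was at 0.02. With 1 array left out the differences ranged from -0.09 to 0.05 (Eif2ak3), -0.01 to 0.13 (Atf6), -0.06 to 0.08 (Xbp1), -0.07 to 0.00 (Ddit3), -0.21 to 0.05 (Asns), -0.04 to 0.05 (Chac1), -0.02 to 0.06 (Ppp1r15a), -0.07 to 0.17 (Atf3) and -0.19 to 0.24 (Eif2s1).

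In the ATF4 list 5 were called higher and 1 lower by the ANOVA, 5 higher with the intensity trend and 6 with array weights. With array weights 2 synthetases, 3 chaperones and 2 genes of sensor processing were called higher, and 4 higher and 1 lower in degradation and the translocon. That fit gave sevoflurane replicate 1 a weight of 0.174 and sevoflurane replicate 2 a weight of 3.25. Quantile normalization called 2 chaperones, 1 gene of degradation and 1 of sensor processing higher, and the ANOVA 1 and 2 of the last 2 lists. With 1 array left out the numbers higher were 2 to 4 in the ATF4 list, 0 to 3 chaperones, 0 to 3 in degradation and 0 to 1 in sensor processing. The 3 chaperones and 3 genes of degradation were called only without sevoflurane replicate 1, and none of either list when another array was left out. The share of all genes called is given only for the limma fit of the Results (1.32%) and for that without sevoflurane replicate 1 (4.61%). Those shares do not apply to the other fits, so their counts are not a result about the lists. The cause of the changes in these counts was not tested.

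With the replicate block no member was called and Gpt2 lost its call (log2 difference of 0.24, unadjusted p of 0.139 from limma). The labels do not say whether arrays of the same number shared a processing step. Same-numbered arrays deviated from their group means with correlations of -0.585, -0.288 and 0.0263, and arrays of unlike number with correlations from -0.504 to 0.558. With 3 arrays per group these values cannot decide whether the numbers mark a batch.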
